A study of Mus musculus with 20 samples.

Results

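Transcripts of matrix metalloproteinases (MMPs), ADAMTS proteases and tissue inhibitors of metalloproteinases (TIMPs) were described in 7 clonal lines of mouse fibroblasts. The genes were taken by symbol: a probe set belonged to the set when its single gene symbol in the platform annotation was an Mmp, Adamts or Timp name followed by its number. This gave 70 probe sets of 37 genes, out of 34945 probe sets with 1 symbol and 18193 genes. The set held 18 MMP genes, 15 ADAMTS genes and 4 TIMP genes.

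MMPs and ADAMTS proteases are zinc enzymes that are secreted or anchored in the plasma membrane, and together they cut collagens, proteoglycans, basement membrane proteins and precursors of growth factors. Most are made as inactive proenzymes, and TIMPs block the active site of MMPs and of some ADAMTS proteases. In fibroblasts a few of these genes are transcribed continuously, while others are known to be induced by cytokines and growth factors through AP-1, the dimer of Jun and Fos proteins.

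The lines came from Swiss 3T3, an immortalized strain of mouse embryonic fibroblasts, and each line was 1 clone. Preadipose by the labels were Swiss 2, Swiss 8 and Swiss 9, with Swiss 19 as the fourth such line, and non-adipogenic were Swiss 3, Swiss 5 and Swiss 22. All cells grew in DMEM with bovine serum, without an agent that induces differentiation, and were taken while still dividing. Each line had 3 arrays, except Swiss 19 with 2, which made 11 preadipose and 9 non-adipogenic arrays of total RNA. The question addressed was which genes set lines that can become fat cells apart before they differentiate. The labels name no separate cultures behind the arrays of 1 line. A p-value made from arrays therefore measures the spread between these arrays alone, which may be technical.

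The deposited intensities were not on a common scale. The mean intensity of an array ran from 25.6 to 156.7, and by the level of the hybridization spikes 11 arrays were dim and 9 were bright. Every array of the preadipose lines Swiss 9, Swiss 8 and Swiss 2 was dim, and every array of Swiss 19 and of the non-adipogenic lines Swiss 22 and Swiss 5 was bright. Swiss 3 had 2 dim arrays and 1 bright one. The labels name no batch that corresponds to this split. Levels below are scaled intensity, meaning that each array was brought to a trimmed mean of 500. Log2 differences come from quantile-normalized log2(intensity + 32) values, which understate the change of dim genes. A gene was called above background in a line when it was brighter there than the 95th percentile of 27 bacterial control probe sets without a target in the sample, a limit between 76.9 and 144 scaled intensity. All 10 fibroblast markers were above background in all 7 lines. Markers of other cell types were mixed. Over all genes, 56.3% were above background in all lines and 83.4% in at least 1 line. Of 10 macrophage markers, 6 (among them Cd68 and Csf1r) were above background in all lines and Ptprc and Itgam in none. Of 8 epithelial markers, Epcam and Krt8 were above it in all lines and Cdh1 and Krt19 in none. Of 7 endothelial markers, 0 were above it in all lines, and Pecam1, Tie1 and Vwf were in none. Their part in the results was not tested.

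The sequences just upstream of the genes are shown first, because most MMPs at or near background in these cells lie in 1 cluster. Its start regions held other motifs than those of the other genes for which a window was at hand. RefSeq (GRCm38.p6) places 9 of the MMP genes in a cluster on chromosome 9, in the order Mmp13, Mmp12, Mmp1b, Mmp3, Mmp1a, Mmp10, Mmp8, Mmp20 and Mmp7. Windows upstream of a RefSeq start were at hand for all 9 of these and for 14 of the genes outside the cluster. The other genes outside it, among them Mmp2, Mmp9 and Adamts5, had no window. For Adamts3, Adamts9, Adamts18, Adamts20 and Mmp23 the window lay before another RefSeq start than that of the gene. In the windows printed here, the 100 bases before the RefSeq start are written 5′ to 3′ on the strand of the gene, with matches in capitals. The capitals mark TGANTCA, the letters bound by AP-1, TATAAA, the TATA box, and GGGCGG or its reverse complement CCGCCC, the GC box bound by Sp1-type factors.
Mmp3, chr9:7445722-7445821, plus strand: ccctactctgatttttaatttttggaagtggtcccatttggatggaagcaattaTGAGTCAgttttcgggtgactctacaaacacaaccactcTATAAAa
Mmp10, chr9:7502242-7502341, plus strand: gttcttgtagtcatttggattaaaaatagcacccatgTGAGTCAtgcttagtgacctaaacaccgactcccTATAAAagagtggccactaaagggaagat
Mmp7, chr9:7691990-7692089, plus strand: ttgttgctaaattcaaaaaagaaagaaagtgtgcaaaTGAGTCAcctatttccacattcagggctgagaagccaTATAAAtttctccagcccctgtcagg
Mmp1a, chr9:7464041-7464140, plus strand: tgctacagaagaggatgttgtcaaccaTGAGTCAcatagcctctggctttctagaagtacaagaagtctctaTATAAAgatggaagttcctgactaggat
Mmp13, chr9:7272414-7272513, plus strand: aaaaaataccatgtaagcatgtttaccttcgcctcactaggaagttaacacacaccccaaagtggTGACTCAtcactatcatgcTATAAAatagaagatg
Mmp8, chr9:7558329-7558428, plus strand: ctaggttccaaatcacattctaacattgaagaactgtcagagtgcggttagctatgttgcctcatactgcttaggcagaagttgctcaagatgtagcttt

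The same window is given for 3 genes outside the chromosome 9 cluster that were above background in every line, as a contrast to the cluster.
Timp1, chrX:20870066-20870165, plus strand: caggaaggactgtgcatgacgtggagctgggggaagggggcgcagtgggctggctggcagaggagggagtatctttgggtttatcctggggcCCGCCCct
Mmp14, chr14:54431498-54431597, plus strand: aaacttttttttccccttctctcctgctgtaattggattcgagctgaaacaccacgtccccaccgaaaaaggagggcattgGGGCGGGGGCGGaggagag
Adamts1, chr16:85803114-85803213, minus strand: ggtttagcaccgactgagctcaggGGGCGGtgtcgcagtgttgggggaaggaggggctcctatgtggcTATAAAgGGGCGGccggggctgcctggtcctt

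Within 250 bases upstream, on both strands, TGANTCA was present in 7 of the 9 cluster genes and in 0 of the 14 other genes with a window. Of 32851 RefSeq windows of this length, 6.75% held it. TATAAA was present in 7 of the 9 cluster genes, 1 of the 14 others (Adamts1) and 12.4% of all windows. GGGCGG was present in 0 of the 9 cluster genes, 11 of the 14 others and 32.7% of all windows. AGGAAG, the core letters of the PEA3 site bound by Ets factors, was less uneven, with 6 of 9, 5 of 14 and 29.5%. The AP-1 letters began 35 bases before the start in Mmp13, 46 in Mmp3, 63 in Mmp10 and Mmp7 and 73 in Mmp1a, each time upstream of the TATA box. Mmp12 and Mmp8 lacked the AP-1 letters in these windows, although a second RefSeq start of Mmp12 had them 44 bases upstream. A match describes letters and is not evidence that a factor was bound. Only these exact letters were searched, so a gene without a match may still hold a variant of the site.

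**Figure D1:**
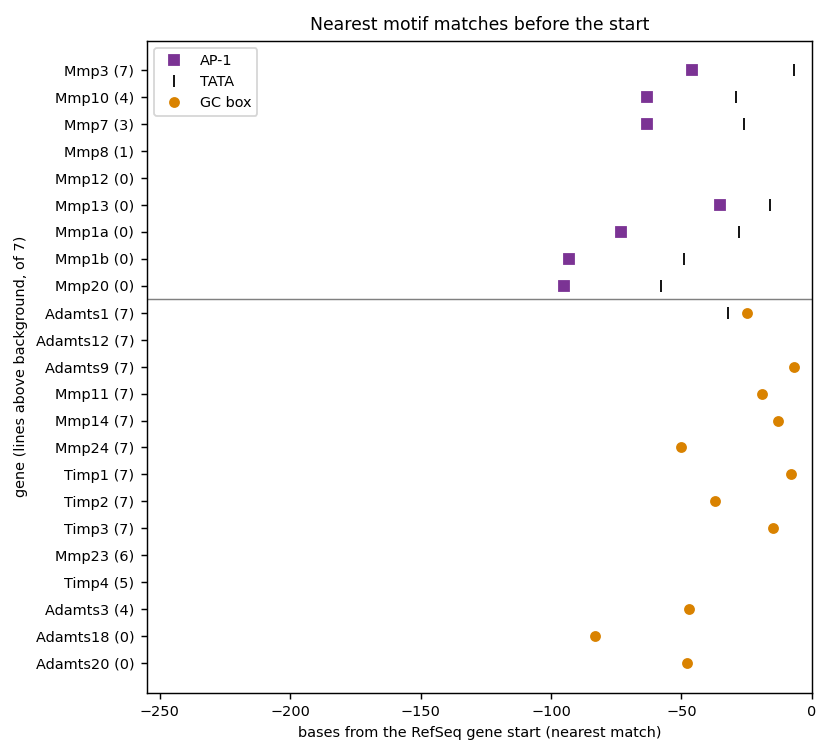
Each row is 1 of the 23 genes with an upstream window, with the number of lines above background in brackets. The horizontal axis gives the bases before the RefSeq start at which the nearest match begins, for the AP-1 letters (squares), TATAAA (ticks) and the GC box (circles). For Adamts3, Adamts9, Adamts18, Adamts20 and Mmp23 this was another start than that of the gene. Above the grey line are the 9 neighbouring MMP genes of chromosome 9, of which 7 carry a square and a tick and Mmp8 and Mmp12 neither, and below it the 14 other genes, of which 11 carry a circle.

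Of the 7 cluster genes with an AP-1 match, only Mmp3 was above background in all 7 lines, and 4 (Mmp1a, Mmp1b, Mmp13 and Mmp20) were above it in none. Of the 14 genes outside the cluster with a window, 9 were above background in all 7 lines. Among these 9, 8 held a GC box, the exception being Adamts12. Of the 3 genes with a GC box that were not above it in all lines, Adamts3 was above background in 4 lines and Adamts18 and Adamts20 in none. The windows of these 3 genes and of Adamts9 lay before another start than that of the gene. The share with a GC box among all genes above background in every line was not counted, and a link of motif and level was not tested.

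Of the 37 genes, 29 were above background in at least 1 line, against 83.4% of all genes. In all 7 lines 19 of 37 were above it, against 56.3% of all genes, so neither share of the set stands out from the array as a whole. By family, 13 of 18 MMPs, 12 of 15 ADAMTS genes and 4 of 4 TIMPs were above background somewhere. The count of genes above background per line ran from 22 in Swiss 2, which had the highest background, to 29 in Swiss 9, where each gene seen in any line was above it.

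Above background in no line were 8 genes. They were Mmp1b, the interstitial collagenases Mmp1a and Mmp13, the macrophage elastase Mmp12, the enamel protease Mmp20, and Adamts18, Adamts19 and Adamts20. Their line means lay between 3.58 (Adamts20 in Swiss 19) and 97.4 (Mmp20 in Swiss 2), each under the background of its line. At such levels the array gives only a bound, so no line differences were read from them.

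Another 10 genes were above background in some lines only. Mmp23, a membrane-anchored protease, the membrane-type Mmp17, Adamts8 and Adamts15 passed it in 6 lines. Timp4, an inhibitor typical of heart and adipose tissue, passed it in 5 lines. The stromelysin Mmp10 and Adamts3, which trims the propeptide of procollagen, passed it in 4. The matrilysin Mmp7 passed it in 3 lines, Adamts6 in 2 (Swiss 9 and Swiss 19) and the neutrophil collagenase Mmp8 in 1, Swiss 9.

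Several of these calls were marginal. Mmp10 ran from 54.1 ± 37.5 (SD, n = 3 arrays) in Swiss 22 to 210.0 ± 156 (SD, n = 3) in Swiss 8, and in no line were all its arrays above background. Mmp8 in Swiss 9 measured 119 ± 43.4 (SD, n = 3), against a background of 86.3 in that line. Its other 6 line means, from 10.0 to 89.7, were not above background. Timp4 line means lay between 77.1 in Swiss 5 and 197 in Swiss 9, with a wide spread between arrays in Swiss 9 (SD 265), and limma's F test over lines gave adjusted p = 0.919. Adamts3 was clearer, at 360.1 ± 129 (SD, n = 3) in Swiss 9 and above background in the 3 non-adipogenic lines (169.6 to 253). In the other preadipose lines, Swiss 2, Swiss 8 and Swiss 19, it was not above background. This holds for its brightest probe set. The second one, 1458143_at, was above background in no line (line means from 35.7 to 76.8).

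**Figure D2:**
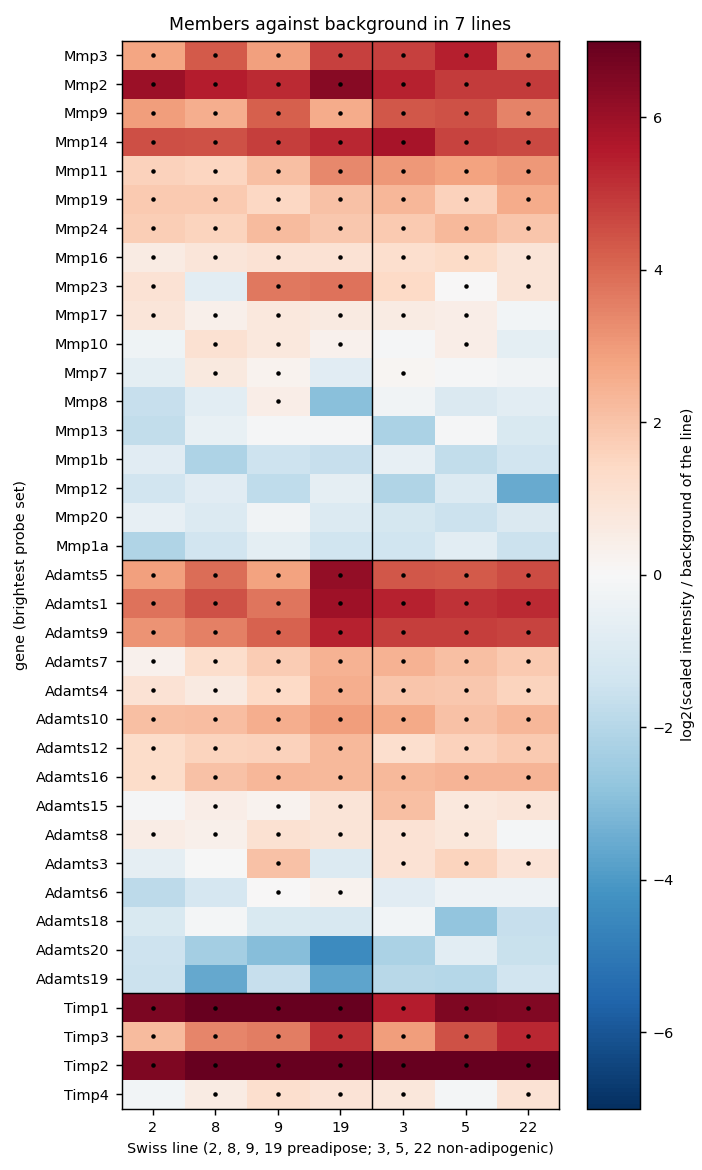
Each row is 1 of the 37 genes, on its brightest probe set, and each column a line. The colour is log2 of scaled intensity over the background of that line, with values beyond the ends of the scale drawn at the end colour, and a dot marks a line above background. Rows of the MMPs of the chromosome 9 cluster, other than Mmp3, are pale or blue, while Mmp2, Mmp3, Mmp14, Adamts1 and Timp1 carry a dot in all 7 lines.

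How the lines differed was tested with limma's F test over the 20 arrays. It called 18 of the 37 genes at an adjusted p under 0.05, against 35.8% of all genes and 42.9% of those above background in a line. By family these were 7 of 18 MMPs, 8 of 15 ADAMTS genes and 3 of 4 TIMPs. At least 1 of the 21 pairs of lines differed by 2-fold or more on the normalized scale, with an adjusted p under 0.05, for 10 of the 37 genes. Over all genes that share was 5.10%, and among those above background in a line it was 6.11%. The 10 were Mmp2, Mmp3, Mmp9, Mmp14, Mmp23, Adamts1, Adamts5, Adamts9, Timp1 and Timp3. When pairs were fitted within the dim or within the bright arrays alone, 10 of the 37 genes again had a called pair, against 4.91% of all genes and 5.89% of those above background in a line, and each of the genes named above had at least 1. In bulk RNA, a lower share of cells that express a gene and less of its RNA per cell cannot be told apart.

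Among the MMPs, the stromelysin Mmp3, which cuts proteoglycans and activates other MMPs, had a range over lines of 1.82 on the log2 scale (F test adjusted p = 4.79e-11). Its arrays read 3652, 3927 and 3603 in Swiss 5, 2939.9, 3094 and 2787 in Swiss 3, and 2148 and 2041 in Swiss 19. In Swiss 8 they read 2325, 1844 and 1719, in Swiss 22 1069, 1012 and 911, in Swiss 2 939, 839 and 1135, and in Swiss 9 676, 568 and 661. Swiss 5 was thus highest and Swiss 9 lowest, with the classes interleaved. Swiss 5 was 5.87-fold above Swiss 9 and 3.74-fold above Swiss 22, the other non-adipogenic line of bright arrays. The neighbours in the order that did not pass the test were Swiss 5 and Swiss 3, Swiss 19 and Swiss 8, and Swiss 2 and Swiss 22.

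Mmp3 therefore differed from its neighbours in the cluster. Mmp1b and Mmp1a, which flank it on either side, were not above background in any line.

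Mmp2, the gelatinase made by most fibroblasts, was highest in Swiss 2, with arrays at 8101, 9579 and 9369. Swiss 19 followed at 6156 and 6543. Swiss 8 read 3716, 4464 and 5615, Swiss 3 4173, 4628 and 4367, Swiss 9 3034, 3181 and 3310.0, Swiss 22 2262, 2919 and 2555, and Swiss 5 2783, 2225 and 2529. All arrays of Swiss 2 lay above all arrays of the other lines, and those of Swiss 5 and Swiss 22 overlapped at the bottom. Swiss 2 was 3.59-fold above Swiss 5, and among the bright arrays Swiss 19 was 2.53-fold above Swiss 5 and 2.46-fold above Swiss 22. A second Mmp2 probe set had a range of 1.85 against 1.67 for the brightest one, also with Swiss 2 at the top.

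Mmp9, the other gelatinase, was ordered differently. Its line means were 2186 ± 189 in Swiss 3 and 1895 ± 365 in Swiss 5, then 1579 ± 285 in Swiss 9, 1106 ± 157 in Swiss 2 and 953 ± 40.3 in Swiss 22 (SD, n = 3 arrays each). Swiss 8 at 579.8 ± 212 (SD, n = 3) and Swiss 19 at 461 ± 60.7 (SD, n = 2) were lowest. Swiss 3 was 4.75-fold above Swiss 19, and Swiss 19, second highest for Mmp2, was lowest for Mmp9. The only neighbours that passed the test were Swiss 22 and Swiss 8. The second Mmp9 probe set had the same range, 1.51, and again Swiss 19 lowest. On it Swiss 5, at 1921, was slightly above Swiss 3, at 1895.

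Mmp14 encodes the membrane-type protease that activates the Mmp2 proenzyme at the cell surface. It was set apart in 1 line, Swiss 3, at 5823 ± 416 (SD, n = 3), with a range of 1.36. The other line means ran from 2084 ± 344 (SD, n = 3) in Swiss 22 to 3314 ± 296 (SD, n = 3) in Swiss 2. Swiss 3 was called higher than Swiss 22, Swiss 5, Swiss 8 and Swiss 9, by 2.38-fold to 2.79-fold, and no other pair was called. The dim arrays of Swiss 3 had a mean of 5934 and its bright array read 5600.3, so both kinds of array lay above the other lines. Both other Mmp14 probe sets were also highest in Swiss 3, with ranges of 0.85 and 1.18.

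Mmp23 had 10 called pairs, more than any other gene of the set. It read 1099 ± 120.0 (SD, n = 3) in Swiss 9 and 1076 ± 249.97 (SD, n = 2) in Swiss 19. Swiss 2 followed at 287 ± 127, Swiss 3 at 275 ± 70.4, Swiss 22 at 163 ± 41.4 and Swiss 5 at 88.4 ± 89.0, while Swiss 8, at 59.9 ± 28.3, was not above background (SD, n = 3 each). Swiss 9 and Swiss 19 thus stood well above the other 5 lines, and these pairs made up all 10 calls. Swiss 9 was at least 11.0-fold and Swiss 19 at least 10.7-fold above Swiss 8. Swiss 5 was close to its background limit of 85.8, so no fold is given against it. The second Mmp23 probe set was above background in just these 2 lines, at 387 in Swiss 9 and 491 in Swiss 19. Its range, 0.99, lay under the log2 limit of 1, so no pair was called on it. Swiss 9 was a line of dim arrays and Swiss 19 of bright ones, and on the brightest probe set each was called higher than lines of its own brightness.

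Mmp11, or stromelysin-3 of stromal cells, had a smaller range, 0.83, and no pair of lines reached 2-fold on the normalized scale. It ran from 283 ± 56.5 (SD, n = 3) in Swiss 8 to 883 ± 91.3 (SD, n = 3) in Swiss 3. The order was Swiss 3, Swiss 19 (806 ± 37.3, n = 2), Swiss 22 (699.9 ± 15.1), Swiss 5 (614 ± 82.9), Swiss 2 (435 ± 71.6) and Swiss 9 (371 ± 102), then Swiss 8. No neighbours in this order passed the test. The lines of dim arrays, apart from Swiss 3, were the lower ones, and within the bright arrays alone the range was 0.21 and the F test gave adjusted p = 0.210. The membrane-type genes Mmp16 and Mmp24 and the broadly expressed Mmp19 were above background in all lines, without a called pair. Mmp16 had the smallest range of the genes above background in every line, 0.13, with preadipose line means of 213 (Swiss 2), 177 (Swiss 8 and Swiss 9 alike) and 153 (Swiss 19) and non-adipogenic ones of 236 (Swiss 3), 215 (Swiss 5) and 159 (Swiss 22).

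**Figure D3:**
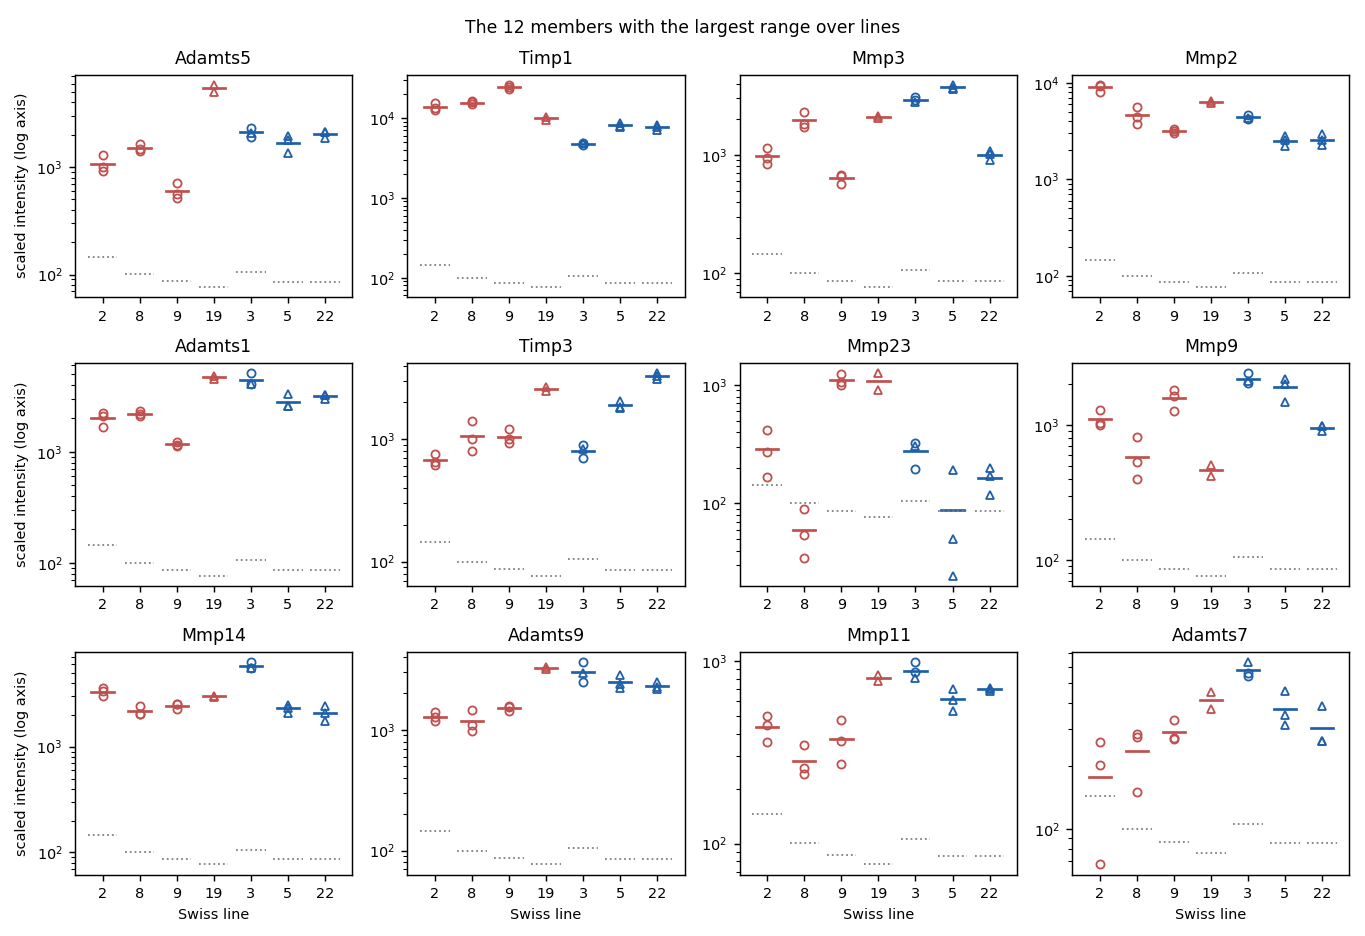
Scaled intensity on a log axis is shown for the 12 genes with the largest range over lines, 1 panel each. Circles are dim arrays and triangles bright ones, short bars are line means, red marks preadipose and blue non-adipogenic lines, and dotted lines are the background of the line. Swiss 19 stands alone at the top for Adamts5 and Swiss 3 for Mmp14, and Timp1 is the one panel in which all red bars lie above all blue ones.

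Of the ADAMTS genes, Adamts5, a main aggrecan-cutting protease, had the widest range of the set on the log2 scale with its pseudocount, 2.40 (F test adjusted p = 5.53e-10), although Mmp23 spanned more as a ratio of means, at least 11.0-fold. Swiss 19 read 5865 and 5032. Swiss 3 read 1921, 2337 and 2094, Swiss 22 2138, 2109 and 1888, and Swiss 5 1778, 1361 and 1932. Swiss 8 read 1641, 1484 and 1409, Swiss 2 1294, 929.8 and 1004, and Swiss 9 519, 719 and 563. Both arrays of Swiss 19 lay above every other array, and all arrays of Swiss 9 lay below every other array. Swiss 19 was 9.08-fold above Swiss 9 and was called higher than each of the 6 other lines. Against the lines that were also on bright arrays it was 3.22-fold above Swiss 5 and 2.66-fold above Swiss 22. In the middle of the order, Swiss 3, Swiss 22, Swiss 5 and Swiss 8 did not pass the test between neighbours. Of the 3 other Adamts5 probe sets, 1 was at background and the 2 others were also highest in Swiss 19, at 2538 and 5138, and lowest in Swiss 9, at 283 and 535.

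Adamts1, which cuts versican and aggrecan, was also highest in Swiss 19, at 4559 and 4814, and lowest in Swiss 9, at 1159.9, 1126 and 1219. Swiss 3 read 4062, 5065 and 4038, Swiss 22 3256, 2998 and 3228, and Swiss 5 3297, 2569.7 and 2569. Swiss 8 read 2308, 2187 and 2098, and Swiss 2 2111, 1667 and 2246. Arrays of Swiss 19 and Swiss 3 overlapped at the top, and those of Swiss 9 lay apart at the bottom. The range was 1.64, with Swiss 19 4.01-fold and Swiss 3 3.76-fold above Swiss 9. Among the lines of bright arrays, Swiss 19 was not 2-fold above Swiss 5 or Swiss 22.

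Adamts9, a versican and aggrecan protease, also had Swiss 19 and Swiss 3 at the top, with a range of 1.14 and Swiss 8 lowest. Swiss 19 stood at 3249 ± 79.9 (SD, n = 2) and Swiss 3 at 3025 ± 568, ahead of Swiss 5 at 2485 ± 342 and Swiss 22 at 2304 ± 159.8 (SD, n = 3 each). Swiss 9 at 1518 ± 76.0, Swiss 2 at 1281 ± 112 and Swiss 8 at 1176 ± 244 were lower (SD, n = 3 each). The 3 lower lines were those whose arrays were all dim. Swiss 3 had a mean of 3065 on its dim arrays and 2945 on its bright one, and was called higher than Swiss 8 within the dim arrays as well. The other Adamts9 probe sets ordered the lower lines differently. On 1431399_at Swiss 3 and Swiss 19 were again highest, at 632 and 554, but Swiss 22 was lowest, at 222. On 1430352_at they read 297 and 293, while Swiss 5 and Swiss 22, at 145 and 141, lay below Swiss 2 at 182. Adamts7, which cuts cartilage oligomeric matrix protein, ran from 178 ± 99.9 (SD, n = 3) in Swiss 2 to 577 ± 46.7 (SD, n = 3) in Swiss 3, a range of 0.74 with no called pair. Between them were Swiss 8 at 238, Swiss 9 at 291, Swiss 22 at 306, Swiss 5 at 376 and Swiss 19 at 415.

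The remaining ADAMTS genes were flatter. Adamts16 had a range of 0.25, with line means of 355, 418 and 432 in Swiss 2, Swiss 8 and Swiss 9, 366 in Swiss 19, and 506, 446 and 442 in Swiss 3, Swiss 5 and Swiss 22. Adamts12 had a range of 0.28, with 355, 298, 266 and 366 in the same order of preadipose lines and 240.4, 260.0 and 303 in the non-adipogenic ones. Neither was called over lines (F test adjusted p = 0.818 and 0.527). A second Adamts16 probe set, 1439604_at, was above background in 6 lines and had a range of 0.51 (F test adjusted p = 0.391). On it the preadipose line means (91.8 to 165) lay below the non-adipogenic ones (171 to 344). Adamts4, another aggrecan-cutting protease, and Adamts10, a protease of fibrillin microfibrils, were called by the F test but had no pair past 2-fold. Adamts15 read 450.1 ± 20.03 (SD, n = 3) in Swiss 3 and between 101 and 156 in the 6 other lines, where Swiss 2 was not above background.

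Among the inhibitors, Timp1, a secreted inhibitor induced by serum and cytokines, had a range of 2.05 (F test adjusted p = 5.80e-12). Swiss 9 read 26068, 23308 and 24228, Swiss 8 16163, 15676 and 14900.3, and Swiss 2 15348, 12620.5 and 13172. Swiss 19 read 10399.7 and 9520.2, Swiss 5 7978, 8741 and 7599, Swiss 22 7012, 7764 and 8180.4, and Swiss 3 4783, 4601 and 4787. All preadipose arrays lay above all non-adipogenic arrays. Swiss 9 was highest and Swiss 3 lowest, 5.19-fold apart. Within the dim arrays, Swiss 9, Swiss 8 and Swiss 2 were each called higher than Swiss 3, and within the bright arrays Swiss 19 was called higher than Swiss 3 (log2 1.02), while no pair of Swiss 19 with Swiss 5 or Swiss 22 reached 2-fold. The neighbours Swiss 8 and Swiss 2, and Swiss 5 and Swiss 22, did not pass the test.

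Timp3, which binds to the matrix and also inhibits ADAM and ADAMTS proteases, ran the other way in several lines. Swiss 22 read 3447, 3079 and 3295, Swiss 19 2647 and 2485, and Swiss 5 2043, 1791 and 1845. Swiss 8 read 1399.8, 998 and 795, Swiss 9 1203, 929 and 1004, Swiss 3 701, 892 and 831, and Swiss 2 760.1, 649 and 611. The 3 lines above were those with bright arrays only, and every array of theirs lay above every array of the 4 other lines. Swiss 22 was 4.86-fold above Swiss 2 and 4.05-fold above Swiss 3. Swiss 3 read 831 on its bright array against a mean of 797 on its dim arrays, and on bright arrays alone Swiss 22 and Swiss 19 were both called higher than Swiss 3. Within the dim arrays the range was 0.38 and was not called (adjusted p = 0.117). The 3 other Timp3 probe sets had ranges of 0.74 to 1.32 and were all highest in Swiss 22.

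The annotation places Timp1, Timp3 and Timp4 in overlap with the synapsin genes Syn1, Syn3 and Syn2, and Timp2 in overlap with Cep295nl. The synapsins read at most 305 scaled intensity, for Syn1 in Swiss 19, and had ranges of 0.22 to 0.45. Whether transcripts of overlapping genes reached the Timp probe sets was not tested.

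The classes were then compared, with the clonal line as the replicate: the 4 preadipose and 3 non-adipogenic line means were fitted with limma. None of the 37 genes passed an adjusted p of 0.05, against 1.53% of all genes, and 1 of 37 had an unadjusted p under 0.05, against 15.6% of all genes. Preadipose lines were higher for 13 genes and lower for 24 by sign alone, with a median log2 difference of -0.02. Over all genes they were higher for 9348 and lower for 8845, with a median of 0.0033. The 37 include the 8 genes above background in no line, whose signs carry little meaning. For 1 of 37 genes, Timp1, all line means of one class lay above those of the other, against 13.9% of all genes.

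Timp1 read 15947 ± 6184 (SD, n = 4 lines) in preadipose and 6827 ± 1836 (SD, n = 3 lines) in non-adipogenic lines. The ratio was 2.34-fold and the log2 difference 1.10 ± 0.25 (SE), which did not pass the test (limma adjusted p = 0.0817). It passed in 4 of 41 other settings, such as when only genes above background were tested (adjusted p = 0.0420), and without Swiss 19 (adjusted p = 0.0444). Within the dim arrays, where Swiss 3 was the only non-adipogenic line, the difference was 1.66. Within the bright arrays, where Swiss 19 was the only preadipose line, it was 0.63. The class and that line cannot be told apart in either part.

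The next largest differences were further from the threshold. Mmp2 read 5785 ± 2515 (SD, n = 4) against 3160.1 ± 1065 (SD, n = 3), a log2 difference of 0.72 ± 0.34 (SE) with limma adjusted p = 0.370. Mmp9 read 931 ± 515 (SD, n = 4) against 1678 ± 645 (SD, n = 3), a difference of -0.61 with adjusted p = 0.417. For Mmp3 the difference was also -0.61 (adjusted p = 0.569), and for Mmp23 it was 0.60 (adjusted p = 0.533). Mmp23 read 630.5 ± 536 (SD, n = 4) against 175 ± 93.9 (SD, n = 3), a 3.59-fold ratio of means that is larger than that of Timp1 and that the log2 scale with its pseudocount compresses. For each of these 4 genes the ranges of the line means overlapped between the classes.

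Adamts9, Adamts1 and Mmp11 differed by -0.48, -0.46 and -0.37 (limma adjusted p = 0.463, 0.628 and 0.339). Their sign turned within the bright arrays, where the differences were 0.30, 0.48 and 0.09 and none passed. Swiss 19 is the only preadipose line on bright arrays, so there too the class and that line cannot be told apart. The part of brightness in the class differences was not tested further. In the dim arrays alone, Swiss 3 is the only non-adipogenic line, so the class and that line cannot be told apart and the spread comes from the 3 preadipose lines. There the difference of Adamts9 was -0.98 (limma adjusted p = 0.0446), and without Swiss 19 it was -0.73 (adjusted p = 0.0332).

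**Figure D4:**
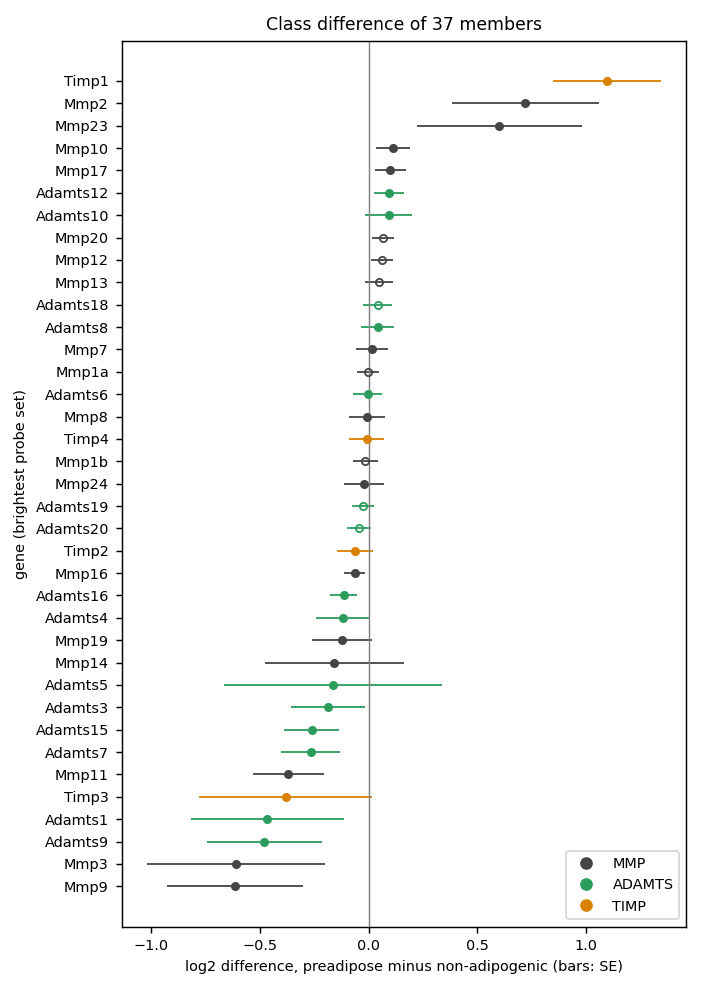
Points are the log2 difference of preadipose minus non-adipogenic line means for the 37 genes, sorted, with bars of 1 standard error. Filled points are genes above background in at least 1 line and open points the 8 in none. Timp1 is farthest to the right at 1.10, Mmp9 farthest to the left at -0.61, and no gene passed the adjusted threshold.

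Timp2 is an inhibitor that also takes part in the activation of the Mmp2 proenzyme by Mmp14. It was the only gene of the set for which the choice of probe set decided the class call. Its brightest probe set, 1460287_at, was flat: line means were 13374, 13694 and 13623 in Swiss 2, Swiss 8 and Swiss 9, 11805 in Swiss 19, and 13783, 11978 and 14362 in Swiss 3, Swiss 5 and Swiss 22. The range was 0.29 and the class difference -0.06 (limma adjusted p = 0.828). Another 4 of its 6 probe sets were above background in all lines and lower in every preadipose line than in any non-adipogenic line. In the fit over all probe sets with 1 symbol, 0.724% were called lower in preadipose lines, and 7.01% had line means without overlap in that direction. In the same fit, 1417678_at of Mmp24 (higher in preadipose lines) and 1439604_at of Adamts16 (lower) also had line means without overlap. Both differed in this from the brightest probe set of their gene, and neither passed (limma adjusted p = 0.254 and 0.206).

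Probe set 1454677_at read between 6328 and 8987 on the 11 preadipose arrays and between 12358 and 18177 on the 9 non-adipogenic arrays. Its line means were 7521 ± 737 (SD, n = 4) and 15805 ± 2036 (SD, n = 3), 2.10-fold lower in preadipose lines (log2 difference -1.04 ± 0.11 SE, limma adjusted p = 0.0139). Probe set 1433662_s_at fell by 1.02 (arrays at 3294 to 5631 against 6911 to 11236, adjusted p = 0.0253), and 1420924_at by 0.78 (1032 to 1671 against 2193 to 2954, adjusted p = 0.0139). Probe set 1450040_at (1241 to 2409.8 against 2632 to 4920.4) had line means of 1747 ± 312 (SD, n = 4) and 2998 ± 463 (SD, n = 3) and did not pass (adjusted p = 0.0831). For these 4 probe sets no array of one class reached the other class. The sixth, 1437081_at, was above background in 1 line only.

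These Timp2 differences were examined probe set by probe set after the values of the brightest one were seen. Without Swiss 22 none of the 3 passed (adjusted p = 0.0653, 0.111 and 0.0702 in the order given above), and 1433662_s_at also did not pass without Swiss 2, Swiss 8, Swiss 9 or Swiss 3 (adjusted p from 0.0519 to 0.0724), nor did 1420924_at without Swiss 3 (adjusted p = 0.0520). Each difference kept its sign within the dim arrays (-1.23, -1.24 and -0.87) and within the bright arrays (-1.01, -1.08 and -0.79), where none passed. With the brightness split as a block they passed (adjusted p = 0.0126, 0.0272 and 0.0142). Which transcript forms each probe set detects was not tested.

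**Figure D5:**
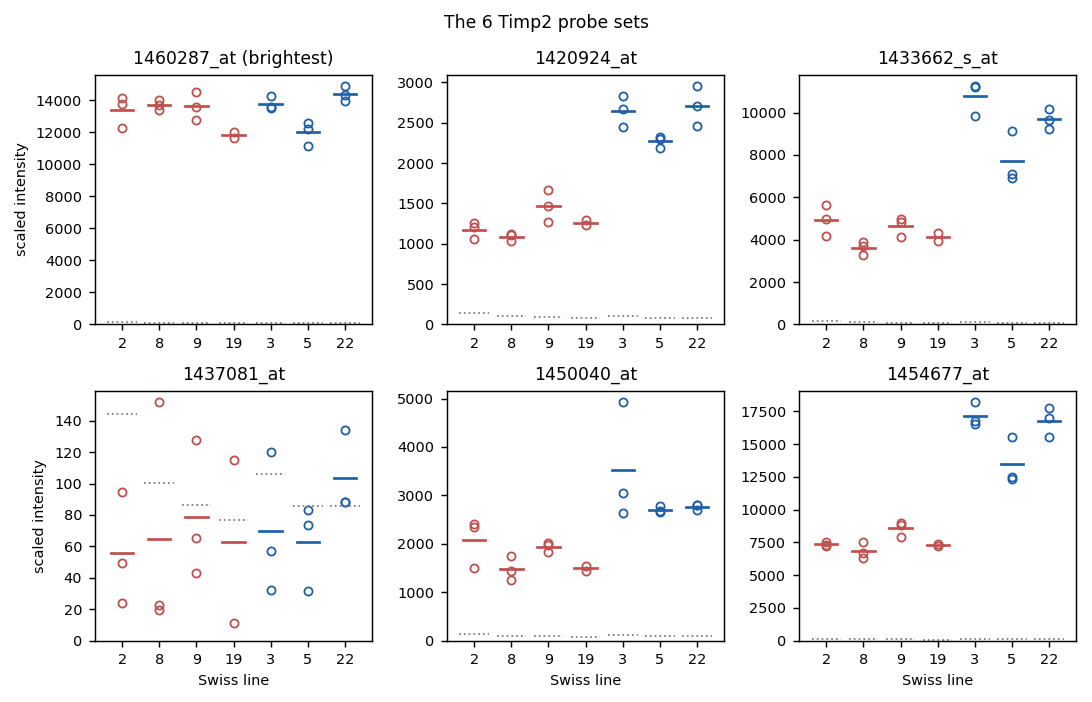
Scaled intensity on a linear axis from 0 is shown for the 6 Timp2 probe sets, with circles for arrays, short bars for line means and dotted lines for background, in red for preadipose and blue for non-adipogenic lines. The brightest probe set has bars between 11805 and 14362 in all lines, while 1420924_at, 1433662_s_at, 1450040_at and 1454677_at show every red circle below every blue one.

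The genes around these proteases were taken from lists of the pathway, and their counts are set beside the shares of all genes given above for the same rules: 1.53% for the adjusted class test, 15.6% for an unadjusted p under 0.05 and 5.10% for a called pair of lines. Of 24 measured activators, inhibitors and receptors, such as furin, plasminogen activators and Reck, 0 passed the adjusted class test and 6 had an unadjusted p under 0.05. Their median difference was 0.0011, and 2 had a called pair of lines. The lowest p belonged to Sdc1, a syndecan, which read 3942 ± 593 (SD, n = 4) against 2517 ± 157 (SD, n = 3), 1.57-fold higher in preadipose lines (limma adjusted p = 0.0519). Itgb3, an integrin chain that binds vitronectin, had the next lowest (limma adjusted p = 0.115). It was above background in 3 lines, none of them non-adipogenic, and not in the preadipose Swiss 2. In Swiss 19 it read 79.7, against a background of 76.9.

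Of 16 ADAM and ADAMTS-like genes, 1 was called, lower in preadipose lines, the median difference was -0.04, and 2 had a called pair of lines. This gene was Adam23, an ADAM without protease activity that binds integrins. It read 654 ± 109 (SD, n = 4) against 2079 ± 324 (SD, n = 3), 3.18-fold lower (log2 difference -1.13, limma adjusted p = 0.00908).

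Of 24 matrix substrates, 0 passed the class test and 8 had an unadjusted p under 0.05, with a median difference of 0.10, and 12 of the 24 had at least 1 called pair of lines. Vcan, the versican cut by Adamts1 and Adamts9, read 3440.3 ± 564 (SD, n = 4) against 2148 ± 828 (SD, n = 3) (limma adjusted p = 0.186). Ncan, the neurocan, had a lower p (adjusted p = 0.163) but was above background in 5 lines only. Of 23 known inducers, 0 passed the class test, 10 had an unadjusted p under 0.05, the median difference was 0.0076 and 5 had a called pair. Ets2, an Ets factor, was 1.64-fold higher in preadipose lines by the ratio of means (adjusted p = 0.112), and Il6, a cytokine, 2.44-fold (adjusted p = 0.124). Neither passed.

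Each line had its own combination of these genes. Counting the called pairs of the set, Swiss 19 was the higher line in 21 and the lower in 4, with Adamts5, Adamts1, Adamts9, Timp3, Mmp23, Mmp2, Mmp3 and Timp1 among the genes where it was higher. Of these 21, 5 were over Swiss 2, 3 over Swiss 8 and 3 over Swiss 9, the lines with dim arrays alone. Within the bright arrays Swiss 19 was not called higher than any line for Adamts1, Adamts9 or Mmp3. Swiss 9 was higher in 10 and lower in 13, with the highest Timp1, the highest Mmp23 on its brightest probe set, and the lowest Adamts5, Adamts1 and Mmp3. Swiss 3 was higher in 12 and lower in 9, with the highest Mmp14, the highest Mmp9 on its brightest probe set, and the lowest Timp1. Swiss 2 was higher in 4 and lower in 9, and led for Mmp2. Swiss 8 was higher in 2, for Mmp3 over Swiss 9 and for Timp1 over Swiss 3, and lower in 9. Swiss 5, which led for Mmp3, was higher in 5 and lower in 7, and Swiss 22, which led for Timp3, higher in 6 and lower in 9.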

How the data were processed

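The deposited values were linear intensities of probe sets from 0 upward. Per the labels' protocols, the arrays received biotin-labelled RNA transcribed from oligo-dT primed cDNA. How probe sets were summarized and scaled is not given in the sources used here, and the number of arrays limits the precision.

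Values were taken as log2(intensity + 32) and quantile-normalized over 20 arrays. A gene was represented by its brightest probe set with 1 symbol, which left 18193 genes without a filter on dim genes. All 37 genes matched the RefSeq gene table, with 0 symbols changed. Scaled intensity was the intensity brought to a trimmed mean of 500 (2% trimmed at either end), and folds are ratios of its means. A fold over a line at background is a lower bound.

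Tests used limma 3.58.1 under R 4.3.3, and p-values were adjusted by Benjamini-Hochberg and called under 0.05. The class was tested on 7 line means over all genes. Lines were tested with the F test on 20 arrays and as 21 pairs, adjusted over genes and pairs, with a log2 limit of 1. The scripts were tested on simulated data. The genes and lists were chosen with earlier results of these data known.

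Named in every line were the 4 TIMPs, Mmp2, Mmp14, any gene called between classes, the 12 genes called by the F test with the largest range of line means, and the 3 flattest above background in all lines. The first 6 of the 12 are given per array. From each pathway list up to 4 called genes were named, or, with none called, the 2 with the lowest p. Other genes were named after their values were seen. Matches of motifs were searched on both strands of RefSeq windows (GRCm38.p6).

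Alternatives were the pseudocount, normalization, probe set, background limit, brightness split, spike level, replicate number, and each array or line left out.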

Additional observations from a re-analysis of the deposited data

Results flagged for a closer look

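In the 4 preadipose lines, 1 line stood apart from the other 3 for 3 of the 29 genes examined, by Dixon's ratio of the gap to the whole range. Chance alone sets about 1 in 20 groups apart in this way. Adamts15 was low in Swiss 9, at 101 scaled intensity, against 137 to 142 in the other 3 lines, all near background. Adamts9 was high in Swiss 19, at 3249 against 1176 to 1518. Swiss 19 was the preadipose line with bright arrays, and the part of brightness in this gap was not tested. Timp2 on its brightest probe set was lower in Swiss 19, at 11805 against 13374 to 13694.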

How the results depend on the processing

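The count of genes called between the classes, 0, was 1 with the smaller pseudocount of 8, 1 among genes above background only, 1 with all probe sets (Timp2, lower), 1 within dim arrays (Adamts9, lower) and 4 when arrays were fitted with a random block for line (Timp1 and Mmp2 higher, Mmp11 and Adamts9 lower). It was 0 without any single array and between 0 and 2 without any single line, with 2 (Timp1 and Adamts9) without Swiss 19. The count called over lines, 18, was 29 with arrays centred on medians and 10 with a range of at least 1, and ran from 17 to 19 without single arrays. The count with a called pair, 10, was 18 without normalization, 17 with scaling before the pseudocount, 5 with the larger pseudocount and 18 without the limit on size, and stayed at 10 without any single array. The count above background, 29, ran from 29 to 31 without single arrays and was 28 at the 99th percentile and 26 when every array had to pass. Of 328 class differences of 8 genes under 41 alternatives, 313 kept direction and side, 9 passed the threshold and 6 reversed: Mmp11 (0.090), Adamts9 (0.30) and Adamts1 (0.48), each within bright arrays and in the brightness block with Swiss 3 entered by its bright array. The cause was not tested. Of 348 ranges, 345 still passed. Exceptions were Timp3 in dim arrays (0.38), and Mmp11 (0.21) and Adamts7 (0.46) in bright ones. The Timp2 probe sets 1454677_at, 1433662_s_at and 1420924_at passed in 33, 29 and 32 of 41 alternatives, added after the data were seen, and kept their sign in all 41. With the replicate number as a block the 3 counts of calls stayed at 0, 18 and 10. Same-numbered arrays did not deviate together (correlations from -0.03 to 0.05 over 57 pairs), and 8 of 20 arrays correlated best with their own number.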

Other observations

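Most markers of other cell types were above background in at least 1 line, as were 83.4% of all genes. Of 10 macrophage markers, 8 were above background in at least 1 line, and their summed scaled intensity ran from 2422 to 2836 in preadipose lines and from 2174 to 3574 in non-adipogenic lines. Of 7 measured osteoblast and chondrocyte markers, 6 were above background in some line, Col10a1 being the exception, and their sums ran from 1540 to 2497 and from 1646 to 1961. Of 7 measured neutrophil markers, 6 were above background in some line, S100a9 being the exception, with sums from 808 to 958 and from 581 to 899. Of 8 epithelial markers, 6 were above it in some line, with sums from 1015 to 1456 and from 1015 to 1498, and of 7 endothelial markers 4 were, with sums from 475 to 624 and from 574 to 829. The sums of these 5 lists overlapped between the classes. The fibroblast sums did not, at 335627 to 416161 in preadipose and 294549 to 316762 in non-adipogenic lines, and no test was made of them. The brightest markers weigh most in such a sum. By sign, 6 of the 10 fibroblast markers were higher in preadipose lines and 4 lower. Only Pdgfra passed the class test (limma adjusted p = 0.00505). It was lower in preadipose lines, at 5251 ± 1456 (SD, n = 4) against 26667 ± 3401 (SD, n = 3).

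Among transcription factors of the inducer list, Fosl1, a Fos-family partner of Jun in AP-1, had 7 called pairs of lines and a range of 1.91. Its line means were 2144, 2777 and 3113 in Swiss 2, Swiss 8 and Swiss 9, 1049 in Swiss 19, and 454, 1367 and 976 in the non-adipogenic Swiss 3, Swiss 5 and Swiss 22. The class difference was 0.94 and did not pass (limma adjusted p = 0.222). Fosl1 was named after its values were seen. Fos, of the same family, was ordered the other way, at 574 in Swiss 3, its highest line, and 39.7 in Swiss 9, its lowest, where it was not above background.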
